A study of Mus musculus with 14 samples.

Results

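Expression of 6 genes of the bile duct epithelium and its expansion was followed through mouse livers on chow or on a diet that brings on steatohepatitis: Krt7, Krt19, Krt23, Epcam, Sox9 and Cftr. They were taken by gene symbol from a count table of 45706 genes, and all 6 were found and all 6 passed the filter on low counts. The livers came from male C57BL6/J mice that entered the study at 8 weeks of age. The chow group (CD in the sample titles, 4 libraries) had standard chow for 16 weeks. The MASH group (3 libraries, numbered 2, 3 and 4) had a MASH diet for 16 weeks, a feeding model of metabolic dysfunction-associated steatohepatitis, in which a fat-laden liver becomes inflamed and fibrotic. The C18:1 group (OA in the titles, 4 libraries) and the C18:1-leucine group (OAL, 3 libraries, numbered 1, 2 and 4) had the same diet and then 6 more weeks of treatment. The labels give no treatment weeks for the chow and MASH groups. In comparisons with those groups, treatment cannot be told apart from the added time and age. C18:1 is a monounsaturated fatty acid, and in C18:1-leucine the amino acid leucine is joined to it. The study asked whether replacing such a lipidated amino acid changes the diseased liver. No dose is stated in the labels used here, and from the titles alone it is unknown whether the MASH group received a vehicle. The treatment tag of C18:1 library 1 reads dietary and that of C18:1-leucine library 1 reads OA, against their titles, so results that rest on them are also given without them. The labels do not say that each library came from a separate mouse, and p-values therefore measure the spread between these libraries, which may be partly technical.

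Cholangiocytes line the bile ducts, where they alter bile by moving chloride, bicarbonate and water. In an injured liver, strings of small duct-like cells spread out from the portal tracts, a change called the ductular reaction, and hepatocytes can also switch on some duct genes. Krt7, Krt19 and Krt23 encode keratins, the intermediate filaments of the epithelial skeleton. Krt7 and Krt19 are the usual stains for ducts, while Krt23 is also induced in stressed hepatocytes. Epcam encodes an adhesion molecule of the cell surface that mature hepatocytes lack. Sox9 is a transcription factor of the biliary lineage that periportal hepatocytes also carry at a low level. Cftr encodes the chloride channel of the apical membrane that drives bicarbonate secretion into bile. In bulk tissue, more or fewer duct cells and more or less RNA per cell cannot be told apart.

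The genes lie on 4 chromosomes of the GRCm38 build, by GENCODE M21: Krt7 on chromosome 15 (101411043 to 101430313, plus strand), Krt19 on chromosome 11 (100140810 to 100148665, minus strand), Krt23 on the same chromosome (99477974 to 99493137, minus strand), Sox9 there too (112782224 to 112787760, plus strand), Epcam on chromosome 17 (87635979 to 87651129, plus strand) and Cftr on chromosome 6 (18170687 to 18322768, plus strand). Because Krt7, Epcam and Cftr moved together across libraries and Krt23 departed from them, the 250 bases upstream of the RefSeq start (GRCm38.p6) are printed for those found in the RefSeq promoter table, 5′ to 3′ on the gene's strand. Krt19, which moved with Krt7 too, and Sox9 were not printed, so the windows do not cover all genes of the shared pattern. Capitals mark every match to the GC box GGGCGG on either strand.
Krt7, chr15:101412153-101412402 (+): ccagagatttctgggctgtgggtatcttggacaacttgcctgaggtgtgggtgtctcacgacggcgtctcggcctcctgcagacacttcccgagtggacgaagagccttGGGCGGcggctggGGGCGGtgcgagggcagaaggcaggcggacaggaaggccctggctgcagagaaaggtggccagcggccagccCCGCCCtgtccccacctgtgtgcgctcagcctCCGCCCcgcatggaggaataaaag
Krt23, chr11:99493121-99493370 (-): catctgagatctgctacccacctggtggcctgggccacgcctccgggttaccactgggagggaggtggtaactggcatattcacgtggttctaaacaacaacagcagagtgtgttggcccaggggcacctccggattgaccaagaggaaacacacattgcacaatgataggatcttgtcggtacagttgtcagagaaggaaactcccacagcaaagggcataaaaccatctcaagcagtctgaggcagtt
Epcam, chr17:87635729-87635978 (+): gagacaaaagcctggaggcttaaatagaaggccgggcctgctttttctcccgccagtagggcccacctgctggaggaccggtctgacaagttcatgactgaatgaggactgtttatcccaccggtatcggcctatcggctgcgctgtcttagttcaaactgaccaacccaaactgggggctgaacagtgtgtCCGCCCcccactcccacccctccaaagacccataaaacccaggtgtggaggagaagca
Cftr, chr6:18170437-18170686 (+): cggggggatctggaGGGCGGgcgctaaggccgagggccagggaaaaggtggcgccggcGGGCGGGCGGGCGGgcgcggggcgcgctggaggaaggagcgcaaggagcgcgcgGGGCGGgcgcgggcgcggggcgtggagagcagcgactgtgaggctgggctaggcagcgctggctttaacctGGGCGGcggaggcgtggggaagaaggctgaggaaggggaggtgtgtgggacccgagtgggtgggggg
The GC box stood 4 times before Krt7 (positions -141, -128, -56 and -24 from the start), 6 times before Cftr (-236, -192, -188, -184, -138 and -67, with neighbouring matches overlapping) and once before Epcam (-58). It was not found before Krt23. Of 32851 promoter windows of the same length, 32.74% held it. No window of these genes held the letters searched for TEAD (GGAATG, in 12.64% of all windows), AP-1 (TGANTCA, 6.75%), RBPJ (TGGGAA, 21.59%), SOX factors (ACAAAG, 16.46%) or the TATA box (TATAAA, 12.37%), all searched on both strands. These are letter matches and say nothing of binding.

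All libraries were deep, with 33821899 to 51107275 counts, and members were counted from 6 times (Cftr in 3 chow libraries) to 707 times (Epcam in C18:1 library 3). Levels are given in CPM, a gene's count relative to the size of its library after TMM scaling, which corrects for library composition. Compared per kilobase of transcript, mean chow levels were highest for Krt23 at 1.86 ± 1.25 CPM per kilobase (SD, n = 4), followed by Sox9 at 1.39 ± 0.186, Krt19 at 0.952 ± 1.11, Epcam at 0.849 ± 0.177, Krt7 at 0.168 ± 0.0928 and Cftr at 0.0309 ± 0.00605. The ranges of Krt23 and Krt19 over the chow libraries reached across those of Sox9 and Epcam, whereas every chow library had more Sox9 than any chow library had Epcam on this scale. In the C18:1 group the first place on this scale went to Epcam at 4.18 ± 2.78 CPM per kilobase (SD, n = 4), with Krt19 at 3.15 ± 2.69 next and Cftr still lowest at 0.223 ± 0.172. Pancreatic acinar transcripts were high in 2 libraries, with a summed 241.7 CPM over 12 genes in chow library 2 and 1086 CPM in C18:1-leucine library 2, against 3.73 to 7.68 CPM elsewhere. Pancreatic ducts also express several of the 6 genes, so results were recomputed without both libraries.

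The label of the set was set against 8 other cholangiocyte markers, and all 8 were counted in every library. The secretin receptor Sctr, a receptor of large ducts, had 0.0294 to 0.0755 CPM in chow and reached 1.18 CPM in C18:1 library 1. Osteopontin (Spp1), which macrophages also make, had 25.2 to 37.3 CPM in chow and 391.4 CPM in the same library. The 10 listed genes of gut and gallbladder epithelium summed to 81.5 to 139.8 CPM in chow, 168.2 to 202.3 CPM in MASH, 132.8 to 164.3 CPM in C18:1 and 192.0 to 223.0 CPM in C18:1-leucine. Most of each sum came from the fatty acid-binding protein gene Fabp2, which had 48.8 to 90.0 CPM in chow and 103.0 to 184.4 CPM on the MASH diet, and from the galectin gene Lgals4. Fabp2 rose in MASH by 1.16 ± 0.17 (SE) on the log2 scale, with an adjusted p of 0.000222 in edgeR. Tff3 had 14.7 CPM in C18:1-leucine library 1 against at most 5.89 CPM elsewhere, Tff2 had 1.58 CPM in C18:1-leucine library 2 against at most 0.444 CPM elsewhere, and Vil1 reached 1.15 CPM in C18:1 library 3. Tff1 had no counts in any library, and Cdx2 and Guca2a stayed at or below 0.0288 CPM. Muc13 was low but present, with at most 0.0294 CPM in chow and 0.0828 to 0.229 CPM on the MASH diet. Cdh17 had at most 0.0592 CPM in chow and reached 0.281 CPM in C18:1 library 1. Neither Muc13 nor Cdh17 passed the filter on low counts. The part of such cells in the levels of the duct genes was not tested.

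Krt7 was low in chow and rose in the C18:1 group. It had 1.24, 0.415, 0.453 and 0.648 CPM in the 4 chow libraries, 0.807, 1.33 and 3.81 CPM in MASH, 5.29, 1.45, 8.01 and 1.83 CPM in C18:1, and 1.22, 1.42 and 3.24 CPM in C18:1-leucine. Each C18:1 library lay above each chow library, whereas the MASH and C18:1-leucine libraries overlapped chow through chow library 1. The fold of C18:1 over chow was 6.06 (95% interval 2.24 to 16.4), a log2 difference of 2.60 ± 0.66 (SE), with an adjusted p of 0.00567 in edgeR's quasi-likelihood test.

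Krt19, the keratin most used to stain ducts, had 4.11 CPM in chow library 1 and 0.533, 0.529 and 0.824 CPM in the other chow libraries. MASH libraries had 0.994, 1.53 and 4.79 CPM, C18:1 libraries 6.05, 1.22, 10.5 and 2.11 CPM, and C18:1-leucine libraries 0.666, 1.30 and 4.81 CPM. Chow library 1 stood apart within its group, and the MASH and C18:1 libraries overlapped chow through it alone. The log2 difference of C18:1 over chow was 1.74 ± 0.90 (SE), with an adjusted p of 0.122 in edgeR, and without chow library 1 it was 2.99 with an adjusted p of 0.0211. In limma voom with sample weights the difference passed with all libraries, at 2.45 and an adjusted p of 0.0224.

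Chow library 1 was also unusual in the ratio of Krt19 to Krt7 counts, which was 3.33 there and 0.544 to 1.48 in the other 13 libraries. Other epithelial genes, picked after their values were seen, were high in it. Dmbt1, a secreted glycoprotein of mucosal and duct surfaces, had 82.2 CPM there, 19.1 CPM in C18:1-leucine library 2, 4.18 CPM in chow library 2 and at most 0.341 CPM elsewhere. The sodium-proton exchanger Slc9a3 had 0.777 CPM there and no counts in the other 13 libraries. The apical mucin Muc1 had 3.11 CPM there against 0.277 to 0.50 CPM in the other chow libraries. Mesothelial markers, which accompany simple keratins in the liver capsule, were lowest in that library at a summed 0.834 CPM over the 6 genes found. Where its extra Krt19 came from was not tested.

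Krt23 did not separate the groups. It had 5.0, 0.83, 4.08 and 1.71 CPM in chow, 4.16, 3.07 and 6.88 CPM in MASH, 4.19, 1.08, 4.73 and 4.20 CPM in C18:1, and 0.966, 3.55 and 5.95 CPM in C18:1-leucine. Every pair of groups overlapped, and within chow the highest library was 6.03 times the lowest. No comparison called it in edgeR, with log2 differences between -0.43 and 0.69 and standard errors of 0.61 to 0.70. Intervals of that width leave both a several-fold rise and a fall possible: for MASH over chow, the fold of 1.61 had a 95% interval of 0.606 to 4.30.

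Epcam had 1.87, 1.60, 1.31 and 2.15 CPM in chow, a narrower spread than any of the 3 keratins had there. It had 2.20, 1.72 and 12.1 CPM in MASH, 14.1, 3.21, 12.7 and 4.09 CPM in C18:1, and 1.63, 2.72 and 8.27 CPM in C18:1-leucine. All 4 C18:1 libraries lay above chow, while in MASH library 4 alone was far above. The fold of C18:1 over chow was 4.95 (95% interval 1.63 to 15), a log2 difference of 2.31 ± 0.74 (SE), with an adjusted p of 0.0199 in edgeR. That call was lost without chow library 3 (adjusted p 0.0513), C18:1 library 1 (0.0573) or C18:1 library 3 (0.0503).

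Cftr was near the limit of detection in chow, at 0.173, 0.178, 0.252 and 0.177 CPM from 6, 6, 10 and 6 counts. It had 0.248, 0.297 and 1.84 CPM in MASH, 2.77, 0.483, 1.80 and 0.587 CPM in C18:1, and 0.193, 0.647 and 1.25 CPM in C18:1-leucine. The C18:1 libraries did not overlap chow, and the other 2 diet groups did. C18:1 stood 7.17-fold over chow (95% interval 2.11 to 24.4), a log2 difference of 2.84 ± 0.82 (SE), with an adjusted p of 0.0109 in edgeR.

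Sox9 varied least. It had 5.87, 4.89, 5.56 and 6.74 CPM in chow, 6.42, 7.44 and 8.14 CPM in MASH, 8.54, 4.72, 7.76 and 6.98 CPM in C18:1, and 4.64, 4.22 and 4.63 CPM in C18:1-leucine. The 3 C18:1-leucine libraries were the lowest of all 14, below every library of each other group. Its coefficient of variation within a group was 5.29 to 23.6%, against 55.2 to 80.9% for Krt7.

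**Figure D1:**
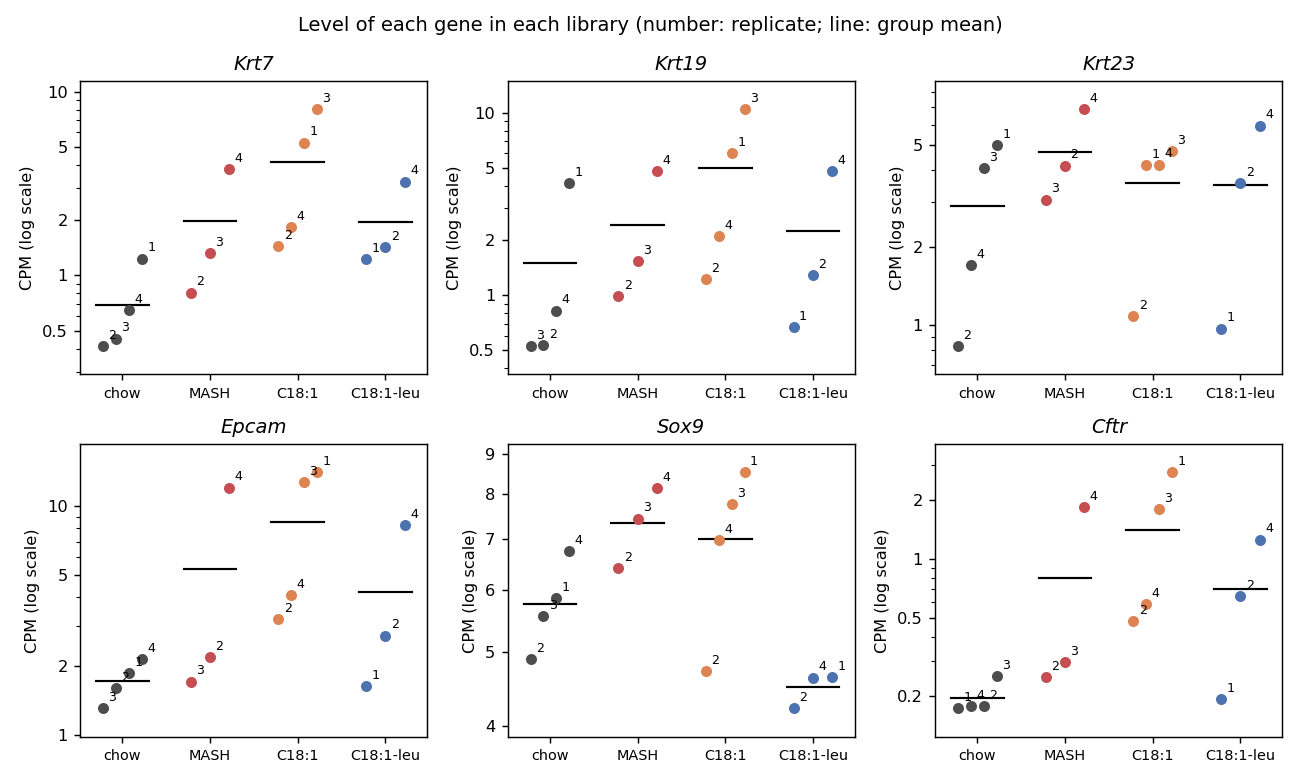
Level of each gene in each library, in CPM on a log axis whose range differs between panels; points are libraries with their replicate number, lines are group means, for chow, MASH, C18:1 and C18:1-leucine. Krt7, Epcam and Cftr lie above chow in all 4 C18:1 libraries, MASH library 4 is far above MASH libraries 2 and 3 for Krt7, Krt19, Epcam and Cftr, and Sox9 is lowest in the 3 C18:1-leucine libraries.

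The spread inside the diet groups had a shared pattern. MASH library 4, C18:1 libraries 1 and 3 and C18:1-leucine library 4 were the 4 highest libraries for Krt7, Krt19, Epcam and Cftr, and not for Krt23 or Sox9. The same 4 libraries were highest for 7 of the 8 other cholangiocyte markers, Cldn4 being the exception, and for 631 of 15676 tested genes (4.03%). These libraries were singled out after their values were seen, and the pattern is a description of them. Each of the 3 diet groups holds at least 1 of them and at least 1 low library. In MASH, Epcam was 12.1 CPM in library 4 against 1.72 and 2.20 CPM in the other 2, which are inside or next to the chow range of 1.31 to 2.15 CPM.

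Other genes moved with these libraries too. The 13 markers of portal fibroblasts and stellate cells, the collagen makers beside the ducts, summed to 679.5 CPM in MASH library 4 against 291.8 and 419.4 CPM in the other MASH libraries. In C18:1 libraries 1 and 3 they summed to 981.6 and 709.5 CPM, against 350.2 and 595.4 CPM in libraries 2 and 4. Mesothelial markers summed to 9.17 CPM in MASH library 4, 10.4 and 16.1 CPM in C18:1 libraries 1 and 3 and 13.6 CPM in C18:1-leucine library 4, the highest values of their groups. Across the chow group they summed to 0.834 to 3.44 CPM. The 12 hepatocyte markers were lowest of their group in MASH library 4 (57810 CPM), C18:1 library 1 (45220 CPM) and C18:1-leucine library 4 (68090 CPM), and C18:1 library 3 (52560 CPM) was inside its group's range. The part of these other cells in the levels of the duct genes was not tested.

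**Figure D2:**
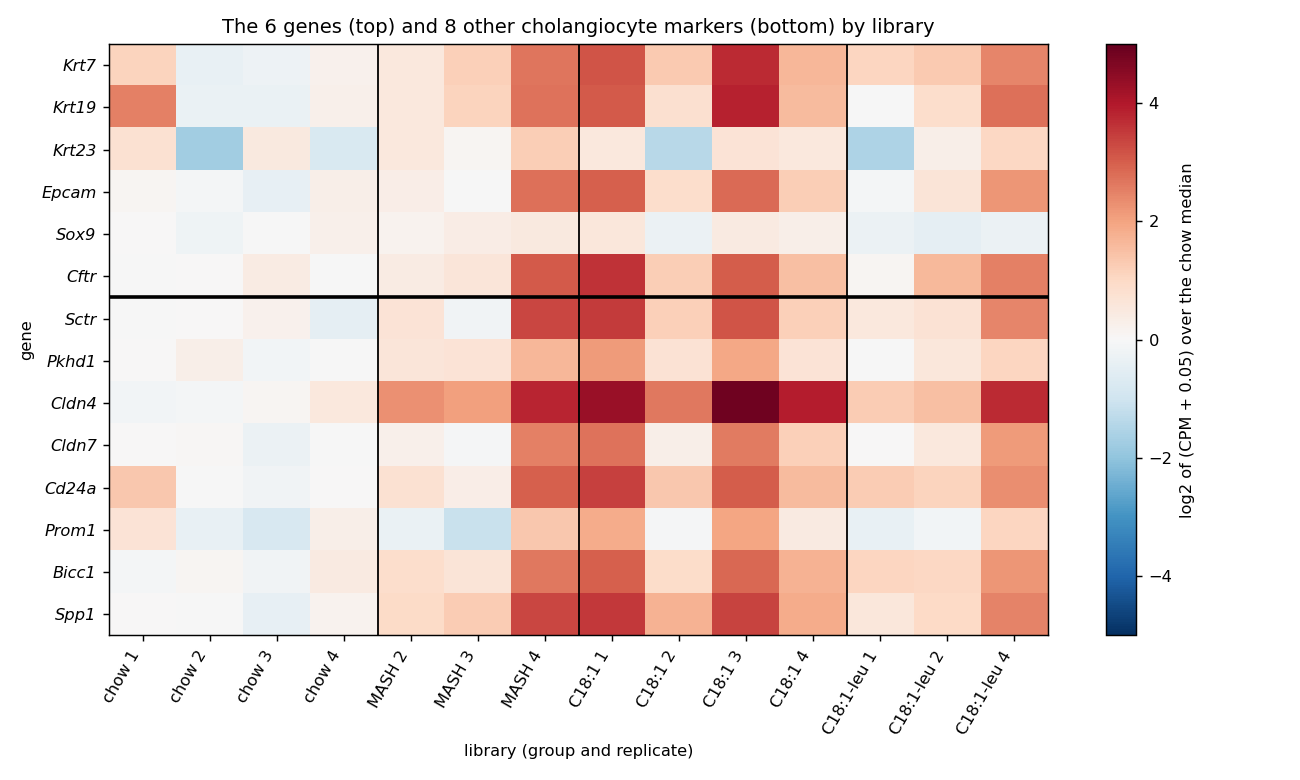
Log2 level of each gene and of 8 other cholangiocyte markers relative to the chow median, with 0.05 CPM added before the ratio, in each of 14 libraries (columns by group); colour runs from -5 to 5. MASH library 4, C18:1 libraries 1 and 3 and C18:1-leucine library 4 form warm columns for most genes, and Sox9 stays pale.

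The genes fell into those that shared this pattern and those that did not. Across the 14 libraries the Pearson correlation of log2 CPM was 0.96 between Epcam and Cftr and 0.92 between Krt7 and Krt19, and over the 10 libraries of the MASH diet it was 0.97 and 0.96. Sox9 had correlations of 0.43 to 0.52 with the other 5 genes, and Krt23 had 0.47 to 0.68. These describe libraries that share groups and carry no test. The ratio of Cftr to Epcam counts stayed within 0.0822 to 0.238 over all 14 libraries while Epcam itself ranged from 1.31 to 14.1 CPM. The ratio of Sox9 to Epcam was 0.560 to 0.676 in the 4 libraries named above and 1.47 to 4.33 in the other 10.

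**Figure D3:**
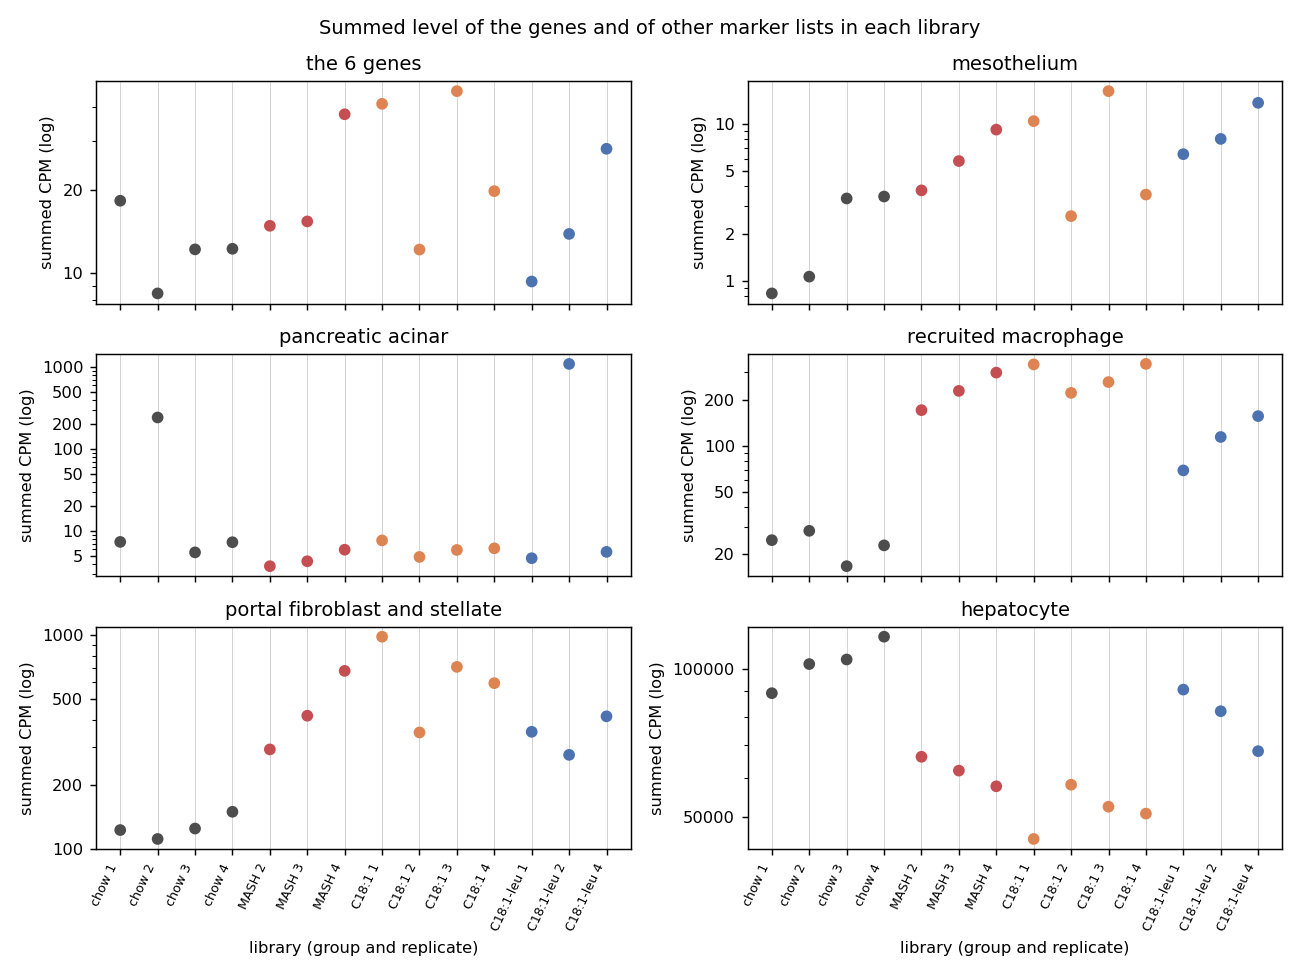
Summed CPM of marker lists per library (log axis), by group, beside the sum over the 6 genes. The 4 libraries with the highest sums of the 6 genes were also high for portal fibroblast and mesothelial markers within their groups.

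The first comparison asked what the MASH diet did to duct genes. No member passed the test of MASH against chow: 0 of 6 were called by edgeR, against 35.5% of all tested genes, and 2 of 6 (Krt7 and Cftr) had an unadjusted p under 0.05, against 46.3%. DESeq2 called these 2, with adjusted p of 0.0487 for Krt7 and 0.0351 for Cftr, and limma voom called 0. The log2 differences were 1.53 ± 0.70 (SE) for Krt7, 0.71 ± 0.96 for Krt19, 0.69 ± 0.65 for Krt23, 1.62 ± 0.77 for Epcam, 0.35 ± 0.17 for Sox9 and 2.01 ± 0.87 for Cftr. Their median was 1.12, and that of all tested genes 0.01. Without MASH library 4, Krt7 stood at 0.63, Epcam at 0.18, Cftr at 0.47 and Krt19 at -0.25. With groups read from the treatment tags, which move C18:1 library 1 into the diet group, Krt7, Epcam and Cftr were called, with adjusted p of 0.0420, 0.0411 and 0.0216.

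In each of 5 wider lists of duct genes some members rose with the diet and 0 fell in edgeR. These lists were chosen with earlier results of the same data known. Of all tested genes, 20.4% rose and 15.1% fell. Of 15 genes of biliary epithelial structure, 6 rose and 0 fell, with a median log2 difference of 1.14. They include Krt8 and Krt18, the keratin pair that hepatocytes share with ducts, at 1.14 ± 0.19 (SE) and 0.72 ± 0.13, the laminin receptor subunit Itga6 at 1.41 ± 0.29 and the tight junction gene Cldn4 at 3.43 ± 0.86. Of 14 tested genes of bile modification and the cilium, 3 rose and 0 fell, with a median of 0.62, and their share of 21.4% was near that of all tested genes. The 3 were the potassium channel Kcnn4 (2.32 ± 0.50), the carbonic anhydrase gene Car2 (0.98 ± 0.22) and the RNA-binding cyst gene Bicc1 (1.62 ± 0.57). Each of these 7 had an adjusted p of at most 0.0426 in edgeR. Some leaned on 1 library: Bicc1 had 25.1 CPM in MASH library 4 against 7.33 and 6.27 CPM in libraries 2 and 3. Cldn4 had 1.62 CPM there against 0.518 and 0.435 CPM. Itga6, Kcnn4 and Car2 were also highest in library 4, and Krt8 and Krt18 in library 3. With groups from the tags, 11 structure genes and 7 bile modification genes rose, and DESeq2 called 9 and 5 higher. The background moved too, with 3807 to 6829 of all genes called in either direction under the alternatives.

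Of 14 regulators of biliary fate, 7 rose and 0 fell (median 0.86), among them the transcription factor Sox4 (2.26 ± 0.44, SE), the Notch receptor Notch1 (0.56 ± 0.12) and the Notch targets Heyl (1.49 ± 0.26) and Hey1 (1.41 ± 0.37). Without MASH library 4 the count was 3. The YAP list held Yap1, the co-activator that senses tissue tension, and 6 of its targets. Of these 7 genes, 4 rose and 0 fell (median 1.38), and 2 rose without that library. Yap1 itself was at -0.14 ± 0.09 and was not called. The 4 were the receptor kinase Axl (1.62 ± 0.15), the adaptor Ajuba (1.38 ± 0.25), the matricellular gene Ccn1 (1.54 ± 0.38) and the nuclear cofactor Ankrd1 (2.38 ± 0.87). Of 14 tested signals of reactive ducts, 10 rose and 0 fell, with a median of 1.64. Spp1, which was among those that rose, had 335.9 CPM in MASH library 4 against 64.9 and 79.7 CPM in libraries 2 and 3. Tnfrsf12a and Vcam1 were highest in library 3. Tnfsf12 and its receptor Tnfrsf12a, a ligand pair that drives progenitor growth, rose by 1.09 ± 0.15 and 1.54 ± 0.21, and the adhesion molecule Vcam1 by 1.35 ± 0.24. The neutrophil attractant Cxcl5 had no counts in any chow library and 0.137 to 0.409 CPM in MASH. Its MASH mean was at least 13.9-fold higher, taking 3 counts over the 4 chow libraries as the floor, with an adjusted p of 0.00134 in edgeR. With Cxcl5 at that bound the median of the list was again 1.64.

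Many of the listed genes are not particular to ducts, and other cell types moved in the same comparison. The shares to set beside them are the 20.4% of all tested genes that rose and the 15.1% that fell. All 7 markers of recruited macrophages rose, their sum going from 16.7 to 28.2 CPM in chow to 170.7 to 298.8 CPM in MASH. Of 13 portal fibroblast and stellate markers, 8 rose, with sums of 111.3 to 149.1 CPM in chow and 291.8 to 679.5 CPM in MASH. Of 12 hepatocyte markers, 11 fell, with sums of 89220 to 116100 CPM in chow and 57810 to 66330 CPM in MASH. Of 10 cell cycle genes, 9 rose. The part of these cells in the duct lists was not tested.

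C18:1 against chow was the comparison with the most calls among the 6 genes. Krt7, Epcam and Cftr were called higher, 3 of 6 against 52.6% of all genes called in either direction and 27.8% called higher. The same 3 of 6 had an unadjusted p under 0.05, against 58.8% of all genes. The same 3 did not overlap chow, against 24.6% of all genes higher without overlap. The share of members called in either direction was thus near the background. The median log2 difference was 2.02 for members and -0.01 for all tested genes. Krt23 differed by 0.29 ± 0.61 (SE) and Sox9 by 0.28 ± 0.16, neither called, though Sox9 was called at 0.43 with an adjusted p of 0.0130 without C18:1 library 2. Without both libraries with disagreeing labels the call of Epcam was lost (adjusted p 0.0551), as it was without both libraries with pancreatic transcripts (0.0506). With groups from the tags, the calls of Epcam (0.103) and Cftr (0.0837) were lost.

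The lists followed the same order. Against chow, C18:1 livers had 10 of 15 structure genes higher and 0 lower, 8 of 14 bile modification genes higher and 1 lower, 9 of 14 regulators higher and 0 lower, 4 of 7 YAP genes higher and 2 lower, and 12 of 14 reactive duct signals higher and 1 lower. Among all tested genes, 27.8% were higher and 24.9% lower. The gene that fell in bile modification was the sodium-potassium-chloride carrier Slc12a2, at -0.47 ± 0.12 (SE) and an adjusted p of 0.00482 in edgeR. With groups from the tags, 3 bile modification genes were higher in place of 8. Under the alternatives, calls over all genes ran from 5913 to 9035. The 2 lower YAP genes were Yap1 and the junction scaffold gene Amotl2. They went to 0 with groups from the tags and with the compared groups alone, and to 1 without both libraries with disagreeing labels. They also went to 0 without chow library 1 and to 1 without chow library 3 or any one C18:1 library. The 1 lower duct signal went to 0 in DESeq2, in limma voom, with the compared groups alone, without both libraries with disagreeing labels, and without chow library 1, MASH library 3 or C18:1 library 1, 3 or 4. Kcnn4 reached 3.43 ± 0.47, Sox4 2.80 ± 0.43 and Cldn4 4.65 ± 0.81. Cldn4 had 0.682 to 3.32 CPM in the C18:1 libraries and 0.0575 to 0.118 CPM in chow. Each chow value was below the lowest Cftr level there, 0.173 CPM from 6 counts, so the fold of Cldn4 rests on few chow counts.

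C18:1-leucine against chow, which shares the chow libraries with both comparisons above, called 0 of 6 members in edgeR, against 14.5% of all genes, and 0 of 6 had an unadjusted p under 0.05, against 31.4%. DESeq2 and limma voom also called 0. Krt7 differed by 1.52 ± 0.70 (SE), Cftr by 1.82 ± 0.88, Epcam by 1.28 ± 0.78, Krt19 by 0.60 ± 0.97 and Krt23 by 0.26 ± 0.66. The fold of Krt7, 2.86, had a 95% interval of 0.998 to 8.19, which holds no difference and the 6.06-fold of C18:1 alike. Sox9 lay below chow without overlap, a log2 difference of -0.36 ± 0.18 with an adjusted p of 0.188. Of all genes, 12.4% were lower without overlap here. The lists had 3 of 15 structure genes, 2 of 14 bile modification genes, 3 of 14 regulators, 1 of 7 YAP genes and 5 of 14 reactive duct signals higher and 0 lower. Among all tested genes, 10.2% were higher and 4.34% lower. Without both libraries with disagreeing labels the counts, in that order, were 1, 2, 1, 1 and 3, and with groups from the tags they were 0, 1, 0, 0 and 2. Without both libraries with pancreatic transcripts they were 1, 2, 3, 1 and 2. Calls over all genes moved as well, from 653 to 3232 under the alternatives. The list counts also depended on single libraries: without C18:1-leucine library 4 they were 0, 0, 0, 1 and 1. Structure genes fell to 0 without chow library 1 or 3 and to 1 without chow library 2 or 4. Regulators fell to 1 without chow library 1, 3 or 4 or C18:1-leucine library 1. Duct signals fell to 3 without chow library 1 or 2 or C18:1-leucine library 1 and to 2 without chow library 3, while YAP genes went to 2 without MASH library 3 and with the compared groups alone.

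**Figure D4:**
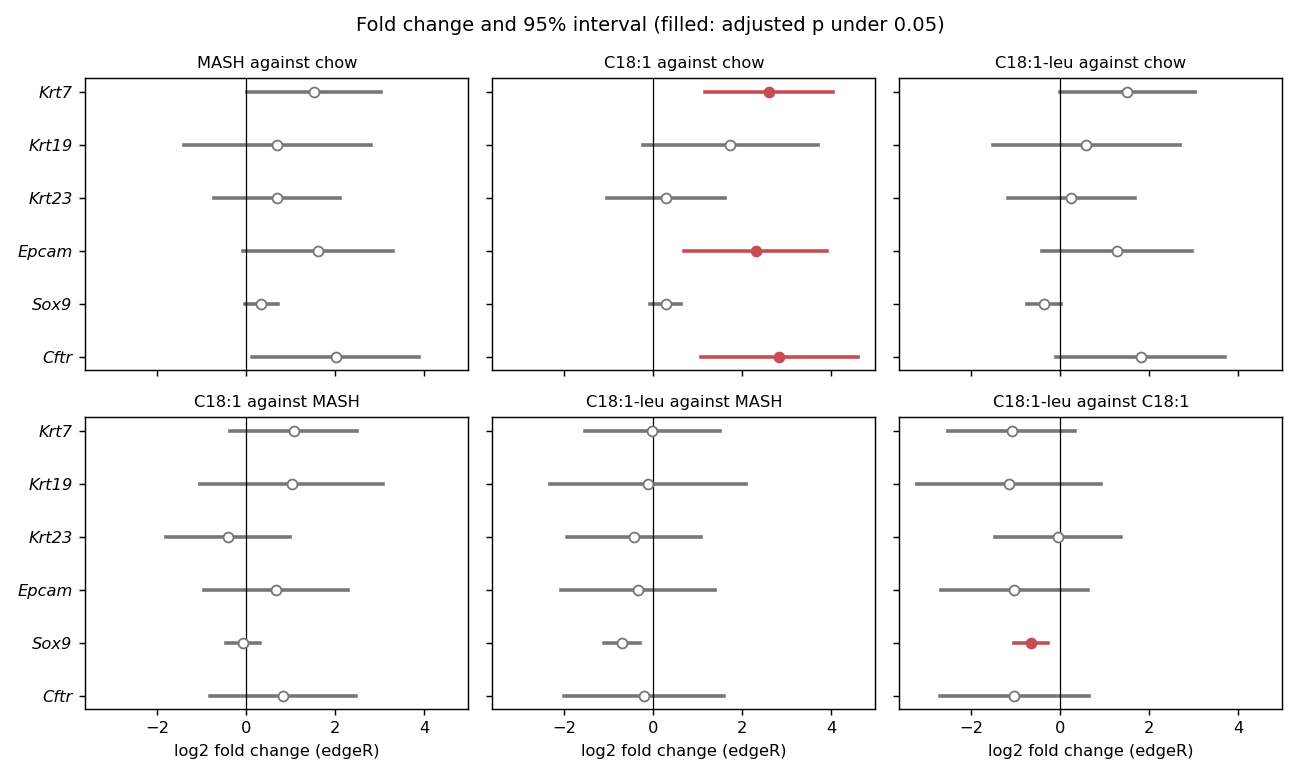
Log2 difference of each gene in 6 comparisons, with 95% intervals derived from edgeR's F test. Points that passed an adjusted p of 0.05 are filled. Filled points stand for Krt7, Epcam and Cftr in C18:1 against chow and for Sox9 in C18:1-leucine against C18:1, and most other intervals cross 0.

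No member was called in edgeR between either compound and MASH. C18:1 against MASH called 0 of 6 in edgeR, against 0.0% of all genes, with 0 of 6 at an unadjusted p under 0.05 against 6.18%, and DESeq2 and limma voom called 0 of 6. The differences ran from -0.40 ± 0.64 (SE) for Krt23 to 1.07 ± 0.66 for Krt7 on the log2 scale, with a median of 0.75 against 0.00 for all genes. Intervals were wide: Epcam at 1.60-fold had a 95% interval of 0.524 to 4.91. All 5 duct lists had 0 genes higher and 0 lower in this comparison in edgeR, DESeq2 and limma voom. At an unadjusted p under 0.05 in edgeR, 1 bile modification gene and 1 regulator were higher and 1 YAP gene was lower.

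C18:1-leucine against MASH called 0 of 6 in edgeR, against 0.0702% of all genes, and 1 of 6, Sox9, had an unadjusted p under 0.05, against 18.1%. Sox9 was 0.614-fold (95% interval 0.464 to 0.813), a log2 difference of -0.70 ± 0.19 (SE) with an adjusted p of 0.101. Its groups did not overlap, which held for 12.0% of all genes in that direction. DESeq2 called it (adjusted p 0.0192), as did limma voom (0.0465). The other 5 differed by -0.43 to -0.01, with standard errors of 0.70 to 1.01. Without MASH library 4, Krt7, Krt19, Epcam and Cftr changed sign, to 0.88, 0.84, 1.10 and 1.35. All 5 duct lists again had 0 genes called in edgeR. At an unadjusted p under 0.05, 3 structure genes, 0 bile modification genes, 1 regulator, 3 YAP genes and 2 duct signals were lower and 0 were higher. After adjustment DESeq2 called 1, 0, 1, 1 and 2 lower in that order, and limma voom 0, 0, 1, 1 and 1. Over all genes, 0 to 948 were called under the alternatives. In edgeR, 1 duct signal was called lower with the compared groups alone, and likewise without C18:1 library 2, 3 or 4 or C18:1-leucine library 4.

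The 2 compounds, which differ by the joined leucine, were then set against each other at the same duration, with doses not given. C18:1-leucine against C18:1 called 1 of 6 members, against 16.2% of all genes in either direction and 8.89% lower. It was also the 1 of 6 with an unadjusted p under 0.05, against 32.0% of all genes. The member was Sox9, at 0.641-fold (95% interval 0.492 to 0.836), a log2 difference of -0.64 ± 0.18 (SE) with an adjusted p of 0.0286 in edgeR. All 3 C18:1-leucine libraries, at 4.22 to 4.64 CPM, lay below all 4 C18:1 libraries, at 4.72 to 8.54 CPM, though C18:1 library 2 at 4.72 CPM was close to them. A separation without overlap downwards held for 14.3% of all genes. The call was lost when any 1 library of the compared groups other than C18:1 library 2 was left out, with adjusted p of 0.0603 to 0.110. It was also lost without both libraries with disagreeing labels (0.157), without both libraries with pancreatic transcripts (0.118), with the compared groups fitted alone (0.0736) and with groups from the tags (0.429). DESeq2 (0.00644) and limma voom (0.00633) called it.

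Krt7, Krt19, Epcam and Cftr were each lower in mean with C18:1-leucine than with C18:1, and none was called. The log2 differences were -1.08 ± 0.66 (SE) for Krt7, -1.14 ± 0.95 for Krt19, -1.02 ± 0.76 for Epcam and -1.03 ± 0.77 for Cftr. For Krt7 the fold of 0.472 had a 95% interval of 0.175 to 1.27, and for Epcam the fold of 0.493 had an interval of 0.158 to 1.54, so neither an equal level nor a several-fold lower one is shown. Krt23 was at -0.04 ± 0.65. The median over members was -1.02, and over all tested genes -0.02.

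Around them, 3 of 15 structure genes, 0 of 14 bile modification genes, 3 of 14 regulators, 2 of 7 YAP genes (Axl and Ajuba) and 2 of 14 reactive duct signals were lower with C18:1-leucine than with C18:1 in edgeR, against the 8.89% of all genes. The 1 YAP gene that was higher was Amotl2. At an unadjusted p under 0.05, 2 bile modification genes were lower. With groups from the tags, all 5 lists had 0 genes called. Without both libraries with disagreeing labels, and also without both with pancreatic transcripts, the lower counts were 1, 0, 0, 1 and 1. DESeq2 gave 3, 1, 4, 2 and 3, and limma voom 5, 1, 6, 3 and 5. Calls over all genes also ran from 0 to 4453 under the alternatives, so these counts have no fixed background. Krt8 was at -0.66 ± 0.19 (SE) and Krt18 at -0.71 ± 0.14, with adjusted p of 0.0324 and 0.00689 in edgeR. Tnfrsf12a, the receptor of the progenitor-growth signal, was at -1.31 ± 0.22 (adjusted p 0.00446) and had 9.0, 11 and 12.9 CPM with C18:1-leucine against 25.4, 21.1, 21.9 and 40.5 CPM with C18:1. Axl was at -1.04 ± 0.16 (adjusted p 0.00328) and Heyl at -0.85 ± 0.25 (0.0362). These counts rested on single libraries too: without C18:1-leucine library 1 they fell to 1 structure gene, 0 regulators, 1 YAP gene and 1 duct signal, and without C18:1 library 4 each of the 4 was 1. Without C18:1 library 1 they were 1, 0, 1 and 2, without C18:1 library 3 1, 1, 1 and 2, and without C18:1-leucine library 2 1, 0, 1 and 2. Without C18:1-leucine library 4 there was 1 YAP gene and 1 duct signal. The call of Amotl2 was lost with relative log expression scaling, when tested with no filter on low counts, and without any one library of the compared groups, and without chow library 3 or MASH library 2.

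Cell markers moved in this comparison as well, where 8.89% of all tested genes were called lower with C18:1-leucine and 7.34% higher. Of 7 recruited macrophage markers 6 were lower with C18:1-leucine, with sums of 69.5 to 156.2 CPM against 220.8 to 340.1 CPM with C18:1. Of 12 hepatocyte markers 5 were higher, with sums of 68090 to 90730 CPM against 45220 to 58230 CPM, and the groups did not overlap for either sum. Mesothelial sums overlapped, at 6.40 to 13.6 CPM and 2.59 to 16.1 CPM. The part of these shifts in the levels of Sox9, Krt8 and Krt18 was not tested.

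The genes most like the members, by Pearson correlation of log2 CPM with the mean standardised level of the 6 genes, included Wnt7b (0.97) over the 14 libraries, with Pof1b, Ccdc92, Ctxn1, Odad4, Agrn, Tspan8, Elapor1 and Thsd4, down to 0.94. Over the 10 libraries of the MASH diet the closest were the semaphorin Sema5a and the annexin Anxa9 (both 0.99), followed by Wnt7b (0.98), Trpm4, Elapor1, Cryab, C1ql3, Ildr1 and Ddit4l, down to 0.97. Wnt7b and Elapor1 stood in both rankings. Wnt7b had group means of 0.0859 CPM in chow, 0.228 in MASH, 0.481 in C18:1 and 0.145 in C18:1-leucine. The surface protein gene Tspan8 had 0.952, 5.5, 8.43 and 3.55 CPM in the same order. The correlations are over libraries that share groups and are given as a description.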

How the data were processed

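Liver RNA was sequenced in 14 libraries. The authors deposited expected (estimated) counts for each Ensembl gene. The submitters' processing notes name GRCm38, HTSeq and DESeq2 1.42.1 without saying what each did. Since 5.09% to 5.76% of a library's entries were fractional, the deposited expected counts were rounded. The labels' protocols name RNeasy for extraction and NEBNext Ultra II for library preparation. The authors' tables of comparisons were not used here, since no key ties their letters to groups. Groups were read from the sample titles.

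Genes were kept by filterByExpr (minimum count 10, minimum total 15, smallest group 3), which left 15676. One fit of edgeR 4.0.16 (R 4.3.3) held all 14 libraries. It used TMM factors and the two-sided quasi-likelihood F test in its robust form, with Benjamini-Hochberg adjustment across every tested gene and a threshold of 0.05. A gene is said to be called, to rise or to fall where it passed. Each standard error (SE) was the size of the log2 difference divided by the square root of its F statistic. The 95% intervals were built from that error with the t distribution. The script was tested on simulated data. CPM uses the TMM-scaled library size, and correlations use a prior count of 2. Libraries held 33821899 to 51107275 counts. Pairs of libraries within a group differed by a chi-square of 27.4 to 173.9 per gene, far above the value near 1 that counting error gives. Coordinates are from GENCODE M21 (45143 of 45706 identifiers matched), transcript lengths from its longest principal transcript, and promoters from RefSeq on GRCm38.p6, which held 4 of the 6 genes. No counts fell on the annotated genes Gm15595 and Gm15592 that overlap Cftr. Gm671, which lies opposite the start of Krt7, was not analysed here, and whether counting used strand is not stated here.

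The 6 genes are named in every comparison, with up to 4 genes of the smallest p in MASH against chow per list, and the 10 genes most like the members in each ranking; some genes of the lists and rankings are not reported here. Members and lists were chosen with earlier results of these data known. The alternatives comprised relative log expression scaling, testing without the low-count filter, DESeq2 1.42.0, limma voom (limma 3.58.1) with sample weights, the compared groups alone, a replicate block, groups from the treatment tags, each library left out, and both libraries with disagreeing labels or with pancreatic transcripts left out.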

Additional observations from a re-analysis of the deposited data

Results flagged for a closer look

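Dixon's gap was taken for each of the 6 genes in the chow and C18:1 groups, which have 4 libraries each. Of these 12 tests, 3 had a library far from the others. Chance flags about 1 in 20 independent tests, but these share libraries and correlated genes, so that rate is only a rough guide. Krt19 in chow library 1 was 4.11 CPM, and the other chow libraries had 0.529 to 0.824 CPM. Krt23 in C18:1 library 2 was 1.08 CPM, below the 4.19 to 4.73 CPM of the other C18:1 libraries. Cftr in chow library 3 was 0.252 CPM from 10 counts, above the 0.173 to 0.178 CPM that 6 counts gave in each of the other chow libraries.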

How the results depend on the processing

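Over the 36 member differences and their alternatives, 756 values kept their direction and their side of the threshold, 10 gained a call, 17 lost one and 44 changed sign, none of the latter in a called difference. A difference was counted only where the gene was tested under the alternative, which was not so in every case. With each library left out, called members numbered 0 to 0 in MASH against chow, 2 to 4 in C18:1 against chow, 0 to 0 in C18:1-leucine against chow, in C18:1 against MASH and in C18:1-leucine against MASH, and 0 to 1 in C18:1-leucine against C18:1. DESeq2 called 2 members in MASH against chow and 1 in C18:1-leucine against MASH, where limma voom also called 1. With groups from the treatment tags 3 were called in MASH against chow, 1 in C18:1 against chow and 0 in C18:1-leucine against C18:1. That last count was also 0 with the compared groups alone, without both libraries with disagreeing labels and without both with pancreatic transcripts. The cause was not tested.

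Of the 44 changes of sign, 22 were in C18:1-leucine against MASH. In limma voom Krt7 was 0.29 and Cftr 0.46 there, and Sox9 in C18:1 against MASH was 0.024. Without the libraries with disagreeing labels, Krt7 was 0.24, Krt19 0.33, Krt23 0.016, Epcam 0.048 and Cftr 0.25 there, and Krt23 in C18:1-leucine against C18:1 was 0.50. Without the libraries with pancreatic transcripts, Krt7 was 0.17 and Krt19 0.16 there, and Krt23 was -0.014 in C18:1 and -0.062 in C18:1-leucine against chow. With groups from the tags, C18:1 against MASH gave Epcam -0.47 and Cftr -0.73; C18:1-leucine against MASH gave Krt23 0.056; C18:1-leucine against C18:1 gave Krt23 0.78, Epcam 0.020 and Cftr 0.30; and C18:1 against chow gave Krt23 -0.078. With 1 library left out, the signs that changed ran over these ranges. In MASH against chow Krt19 ran from -0.25 to 1.96. In C18:1 against MASH Sox9 ran from -0.17 to 0.082. In C18:1-leucine against MASH Krt7 ran from -0.58 to 0.88, Krt19 from -1.32 to 0.84, Krt23 from -1.06 to 0.016, Epcam from -1.29 to 1.10 and Cftr from -0.94 to 1.35. In C18:1-leucine against C18:1 Krt23 ran from -0.66 to 0.41. Against chow, Krt23 ran from -0.012 to 0.68 in C18:1 and from -0.39 to 0.71 in C18:1-leucine, and Krt19 there from -0.63 to 1.85.

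Deviations of same-numbered libraries of different groups correlated between -0.245 and 0.423, and those of differently numbered libraries between -0.516 and 0.498. These overlapping ranges do not decide whether replicate numbers pair the libraries. A replicate block changed no call of a member: 3 were called in C18:1 against chow, 1 in C18:1-leucine against C18:1 (Sox9, adjusted p 0.0228 in edgeR) and 0 elsewhere. Under the block Krt7 in C18:1-leucine against MASH was 0.12 and Krt23 in C18:1-leucine against C18:1 was 0.19. Over all genes, calls under any alternative ran from 3807 to 6829 in MASH against chow (5564 in edgeR with all libraries), 5913 to 9035 in C18:1 against chow (8251), 653 to 3232 in C18:1-leucine against chow (2275), 0 to 3 in C18:1 against MASH (0), 0 to 948 in C18:1-leucine against MASH (11) and 0 to 4453 in C18:1-leucine against C18:1 (2543). Among the members, depth limits Cftr most, with 6 to 10 counts per chow library.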
